A study of Mus musculus with 11 samples.

Results

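Lymphoid tissue chemokines and lymphotoxin were examined as a list of 9 genes, *Cxcl13*, *Ccl19*, *Ccl21a*, *Ccr7*, *Lta*, *Ltb*, *Ltbr*, *Cxcl12* and *Ngfr*, chosen by name for their known roles in lymphoid organs, with earlier results of these data known. All 9 were among the 19058 genes of the main deposited table. In lymph nodes and spleen, stromal cells make the chemokine CXCL13, which draws B cells into follicles, and CCL19 and CCL21, which draw T cells and mature dendritic cells that carry the receptor CCR7. Lymphocytes display lymphotoxin, built from the products of *Lta* and *Ltb*, and its receptor on stromal cells, encoded by *Ltbr*, drives the genes of the non-canonical NF-kB pathway and with them the chemokines. The same genes can be switched on in glands that become infiltrated, where aggregates of B cells and T cells form.

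RNA from whole lacrimal glands of male NOD mice was sequenced, with 1 library per mouse, from 3 WT, 5 *Tlr7* KO and 3 *Ifnar1* KO animals. NOD mice develop autoimmune infiltrates of the lacrimal gland, and all groups share this background. TLR7 is an endosomal sensor of single-stranded RNA and IFNAR1 is a chain of the type I interferon receptor. The *Tlr7* allele was a 2 base-pair deletion made by gene editing in NOD embryos, taken from a single founder allele. The strain was made homozygous after a backcross to NOD. *Tlr7* is X-linked, so the males sequenced here carry a single copy. The *Ifnar1* allele was Ifnar1 em16, homozygous. The WT and *Tlr7* KO mice were 20 to 22 weeks old by the study's account of these samples, and an age for the sequenced *Ifnar1* KO mice was not given in the sources used here. The study left out a further *Ifnar1* KO library because its gland was as inflamed as WT glands and it grouped with them, so the *Ifnar1* KO group was selected for low inflammation, which bears on every *Ifnar1* KO value given here.

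The libraries held 20512315 to 28814250 counts assigned to genes. *Tlr7* itself was at 2.39 ± 0.762 CPM (counts scaled to each library's total times its TMM factor; SD, n = 3) in WT, 0.778 ± 0.176 (n = 5) in *Tlr7* KO and 0.562 ± 0.289 (n = 3) in *Ifnar1* KO glands, and *Ifnar1* was at 13.5 ± 2.62, 9.55 ± 1.08 and 9.01 ± 0.648 CPM. A short deletion need not remove a transcript, and both genes were lower in both knockouts, so these levels do not tell the knockouts apart. The summed level of 8 lacrimal gland epithelial markers was 1431 to 1727 CPM in WT, 1819 to 1916 CPM in *Tlr7* KO and 1888 to 1974 CPM in *Ifnar1* KO glands, with none of the 8 at 0. Salivary gland markers summed to 3173 CPM in WT 3, 2760 CPM in *Ifnar1* KO 2 and 224 CPM in *Ifnar1* KO 1, against at most 12.04 CPM in the other libraries. The number of members and of all pathway genes called is also given without WT 3 and *Ifnar1* KO 2, and the part of salivary tissue in the results was not tested.

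In WT glands, *Cxcl13* had the highest level of the 9 genes per kilobase of merged exon, at 29.4 ± 11 CPM per kb (SD, n = 3). It was followed by *Ltb* at 13.5 ± 6.003 and *Ltbr* at 7.94 ± 1.12 CPM per kb. The WT ranges of *Cxcl13* and *Ltb* did not overlap, whereas those of *Ltb* and *Ltbr* did. *Ccr7* (2.59 ± 1.44), *Cxcl12* (2.11 ± 0.170) and *Ccl19* (1.37 ± 0.847) came next on the same scale, and each overlapped its neighbour. *Lta* (0.670 ± 0.484), *Ccl21a* (0.205 ± 0.185) and *Ngfr* (0.185 ± 0.155 CPM per kb) were at the bottom of the order and also overlapped. In both knockouts *Ltbr* was first, at 8.90 ± 0.429 CPM per kb in *Tlr7* KO (n = 5) and 9.57 ± 1.40 in *Ifnar1* KO (n = 3), with *Cxcl13* second at 3.95 ± 1.95 and 1.90 ± 1.15. The *Cxcl13* range did not reach that of *Ltbr* in either knockout.

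*Cxcl13*, the chemokine of B cell follicles, was up-regulated in WT glands over both knockouts. It was at 47.5, 22.6 and 31.4 CPM in WT 1, 2 and 3, at 4.25, 8.39, 2.96, 2.92 and 4.17 CPM in *Tlr7* KO 1 to 5, and at 2.25, 3.47 and 0.837 CPM in *Ifnar1* KO 1 to 3. Each WT gland was above each knockout gland, and *Tlr7* KO 2 was the highest of the knockout glands. The log2 fold change was -2.91 ± 0.344 (SE) in *Tlr7* KO, or 7.49-fold lower (adjusted p = 0.00103, edgeR's quasi-likelihood test). It was -3.97 ± 0.478 in *Ifnar1* KO, or 15.7-fold lower (adjusted p = 0.0207). In bulk tissue, fewer cells of a type and less RNA per cell cannot be told apart, and this holds for every gene described here. The gene lies at chr5:95956951-95961068 on the plus strand (GRCm38). Its 250 bases upstream of the RefSeq start, chr5:95956689-95956938 on the plus strand (RefSeq, GRCm38.p6), are shown because an NF-kB pattern, GGG and CC with any 5 bases between them on either strand, falls in them. Capitals mark the match, GGGAGGGCCC, which starts 63 bases before the start site.
Cxcl13: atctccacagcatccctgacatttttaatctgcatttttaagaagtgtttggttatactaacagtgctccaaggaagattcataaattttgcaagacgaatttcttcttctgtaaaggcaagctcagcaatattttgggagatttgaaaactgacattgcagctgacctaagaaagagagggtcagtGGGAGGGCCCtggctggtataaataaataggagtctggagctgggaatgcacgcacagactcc

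*Ccl19*, a ligand of CCR7 made by stromal and dendritic cells, was lower in both knockouts at much lower counts. It was at 1.27, 0.422 and 1.89 CPM in WT 1, 2 and 3, at 0.115, 0.348, 0.228, 0.206 and 0 CPM in *Tlr7* KO 1 to 5, and at 0, 0.262 and 0 CPM in *Ifnar1* KO 1 to 3. WT 2 was the lowest WT gland and, in the main deposited table, still above every knockout gland. The second deposited table gave *Ccl19* 9, 2 and 10 counts in WT 1 to 3, and 0, 2, 3, 0 and 0 in *Tlr7* KO 1 to 5. WT 2 did not stand above *Tlr7* KO 2 or 3 there, and the gene had too few WT counts to be tested. In the main table the log2 fold change was -2.69 ± 0.640 in *Tlr7* KO (adjusted p = 0.0124, and 0.0628 without WT 3) and -3.75 ± 1.08 in *Ifnar1* KO (adjusted p = 0.0496), on 116, 22 and 7 counts in all for WT, *Tlr7* KO and *Ifnar1* KO. All 7 counts came from *Ifnar1* KO 2, and without that mouse the fitted value was -8.12, which depends on the prior count. The *Ifnar1* KO call ended with RLE scaling (adjusted p = 0.0509) and without WT 1, WT 3 or *Ifnar1* KO 1 or 3 (adjusted p = 0.117 to 0.143, -3.71 to -3.11). Of the members with promoter sequence, *Ccl19* had the only match to the core of the interferon-stimulated response element, GAAA and GAAA with any 2 bases between them on either strand, a pattern found in 2.98% of 32851 RefSeq promoters over the same 250 bases. The match, in capitals, starts 208 bases before the RefSeq start site. It is shown in 30 bases of chr4:42756554-42756583 on the minus strand (RefSeq, GRCm38.p6). GENCODE places the gene at chr4:42754525-42756577, so by that annotation the whole match lies inside the gene. It is upstream of the RefSeq start only.
Ccl19: ttttgggacaGAAAGTGAAAgctcaaggca

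*Ccl21a*, the other CCR7 ligand, was close to the limit of detection. It had 4, 1 and 13 counts in WT 1, 2 and 3, none in any *Tlr7* KO gland, and 1 count in *Ifnar1* KO 2 alone. With only 18 WT counts it was below the filter and was not tested. With no filter it was called in *Tlr7* KO (adjusted p = 0.0315) and not in *Ifnar1* KO (adjusted p = 0.0994), where fitted fold changes depend on the prior count. Against a floor of 3 counts over the *Tlr7* KO group it was at least 7.95-fold lower there, and the WT to *Ifnar1* KO ratio was 16.1 (95% exact counting interval 2.54 to 670), which covers counting error only. WT 3, the WT library highest in salivary gland markers, gave 13 of the 18 WT counts. Both values rest largely on that library, would be smaller without it and were not computed without it. The gene lies at chr4:42772860-42773993, 16282 bases from *Ccl19*, beside near copies. Over 402 coding bases *Ccl21a* and *Ccl21b* differ at 2 positions, T84A and C194T, counted from the first base of the start codon with the *Ccl21a* base first. The second deposited table listed 0 counts for both copies in all mice, so which copy the counts came from is uncertain. The windows around both differences, with the differing base in capitals, show how little separates the copies.
Ccl21a, coding bases 70 to 99: agtgatggagggggTcaggactgctgcctt
Ccl21b, coding bases 70 to 99: agtgatggagggggAcaggactgctgcctt
Ccl21a, coding bases 180 to 209: ggcaatcctgttctCaccccggaagcactc
Ccl21b, coding bases 180 to 209: ggcaatcctgttctTaccccggaagcactc

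*Cxcl12*, a chemokine of stromal cells that guides lymphocytes and precursor cells through CXCR4, changed least among the called genes. It was at 17.8, 15.6 and 18.3 CPM in WT 1, 2 and 3, at 10.8, 10.4, 10.3, 10.5 and 15.2 CPM in *Tlr7* KO 1 to 5, and at 6.64, 7.62 and 8.20 CPM in *Ifnar1* KO 1 to 3. No pair of groups overlapped, although *Tlr7* KO 5 came close to WT 2. It was 1.52-fold lower in *Tlr7* KO (log2 fold change -0.60 ± 0.134, adjusted p = 0.00973) and 2.34-fold lower in *Ifnar1* KO (-1.22 ± 0.138, adjusted p = 0.0207). Between the knockouts it was higher in *Tlr7* KO by 0.61 ± 0.145 on the log2 scale (95% interval 0.29 to 0.93), which did not pass edgeR's quasi-likelihood test (adjusted p = 0.0704) and passed DESeq2's test (adjusted p = 0.0081). Adjusted p values for this difference ran from 0.0081 to 0.218 over its alternatives. *Cxcl12* lies at chr6:117168535-117181367 on the plus strand.

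*Ccr7*, the receptor for CCL19 and CCL21 on naive and memory T cells and mature dendritic cells, was also lower in both knockouts. It was at 7.08, 1.86 and 6.45 CPM in WT 1, 2 and 3, at 1.99, 2.52, 0.608, 0.823 and 1.16 CPM in *Tlr7* KO 1 to 5, and at 0.340, 1.38 and 0.126 CPM in *Ifnar1* KO 1 to 3. WT 2 lay below *Tlr7* KO 1 and 2, so WT and *Tlr7* KO overlapped, and it lay above every *Ifnar1* KO gland. In *Tlr7* KO it was lower by 3.63-fold (-1.86 ± 0.503 on the log2 scale, adjusted p = 0.0207), and in *Ifnar1* KO by 8.44-fold (-3.08 ± 0.794, adjusted p = 0.0376). Without WT 1 or WT 3 the *Tlr7* KO difference was -1.57 or -1.66 and did not pass (adjusted p = 0.0813 and 0.0771). The *Ifnar1* KO difference was -4.42 without *Ifnar1* KO 2, and it did not pass without WT 1, WT 3 or *Ifnar1* KO 1 or 3 (-2.88 to -2.63, adjusted p = 0.103 to 0.126). The gene lies at chr11:99144196-99155077 on the minus strand.

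*Ltb*, which encodes the membrane-anchoring chain of lymphotoxin, was the more abundant of the lymphotoxin ligands. It was at 27.6, 10.2 and 23.5 CPM in WT 1, 2 and 3, at 2.60, 7.87, 1.22, 1.77 and 2.64 CPM in *Tlr7* KO 1 to 5, and at 1.16, 2.20 and 0.209 CPM in *Ifnar1* KO 1 to 3. WT 2 was lowest in WT and *Tlr7* KO 2 highest in the knockouts, and WT overlapped neither knockout, while the knockouts overlapped each other. The log2 fold change was -2.68 ± 0.526 in *Tlr7* KO, or 6.40-fold lower (adjusted p = 0.00597), and -4.11 ± 0.655 in *Ifnar1* KO, or 17.3-fold lower (adjusted p = 0.0216). Without *Tlr7* KO 2 the first was -3.33, and without *Ifnar1* KO 2 the second was -4.86. The second did not pass without WT 1, WT 3 or *Ifnar1* KO 1 or 3 (adjusted p = 0.0575 to 0.0799). *Ltb*, at chr17:35194439-35196320 on the plus strand, lies beside *Tnf* and *Lta*, with 3060 bases between *Ltb* and *Tnf* and 1157 bases between *Tnf* and *Lta*. The bases before the GENCODE start, chr17:35194257-35194438 (RefSeq, GRCm38.p6, plus strand), are shown for the NF-kB pattern on the opposite strand, GGAAAGTCCC, in capitals. A further 3 overlapping matches lie between 40 and 29 bases before the RefSeq start and are not shown.
Ltb: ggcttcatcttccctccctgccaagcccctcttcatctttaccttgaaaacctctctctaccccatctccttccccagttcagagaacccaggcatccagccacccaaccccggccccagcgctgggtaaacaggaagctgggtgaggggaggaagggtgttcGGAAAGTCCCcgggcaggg

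*Lta*, which encodes the chain that lymphotoxin shares between its soluble and membrane forms, was low in all groups. It was at 1.44, 0.169 and 1.17 CPM in WT 1, 2 and 3, at 0.153, 0.304, 0.0380, 0 and 0.317 CPM in *Tlr7* KO 1 to 5, and at 0.0681, 0.149 and 0 CPM in *Ifnar1* KO 1 to 3. WT 2 lay below *Tlr7* KO 2 and 5, so those groups overlapped, and it was just above *Ifnar1* KO 2. Before scaling, WT 2 and *Ifnar1* KO 2 had 4 counts each. *Tlr7* KO glands had a log2 fold change of -2.56 ± 0.815 (adjusted p = 0.0381), against -3.61 ± 1.0 for *Ifnar1* KO glands (adjusted p = 0.0446), on 89, 18 and 6 counts in all for WT, *Tlr7* KO and *Ifnar1* KO. Leaving out WT 1, WT 3 or *Tlr7* KO 1, 3 or 4 ended the first of these calls (adjusted p = 0.0607 to 0.139). The second passed only without WT 2 among the fits that left out a mouse, and was -4.53 without *Ifnar1* KO 2 (adjusted p = 0.0699). The gene lies at chr17:35203165-35205351 on the minus strand. Its 250 upstream bases at chr17:35205352-35205601 (RefSeq, GRCm38.p6, minus strand) are shown beside those of its partner chain, and the capitals mark 2 overlapping NF-kB matches.
Lta: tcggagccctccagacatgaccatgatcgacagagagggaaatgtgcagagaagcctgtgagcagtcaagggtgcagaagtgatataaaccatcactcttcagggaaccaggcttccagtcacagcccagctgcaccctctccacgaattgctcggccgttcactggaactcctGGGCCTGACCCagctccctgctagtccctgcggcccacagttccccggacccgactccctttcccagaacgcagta

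The NF-kB pattern was found in 7 of the 8 members with promoter sequence, *Ccl21a* being the exception, and in 45.8% of all promoters over the same 250 bases. A match to so common a pattern is a description of the letters only.

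*Ltbr*, the lymphotoxin receptor of stromal and epithelial cells, was the tested member without a call in any comparison. It was at 16.7, 21.7 and 17.7 CPM in WT 1, 2 and 3, at 21.8, 19.4, 21.7, 21.5 and 20.4 CPM in *Tlr7* KO 1 to 5, and at 26.1, 19.7 and 21.8 CPM in *Ifnar1* KO 1 to 3. The groups overlapped, and WT 2 was here the highest WT gland. The log2 fold change was 0.16 in *Tlr7* KO (95% interval -0.04 to 0.37, adjusted p = 0.201) and 0.25 in *Ifnar1* KO (-0.10 to 0.60, adjusted p = 0.256). With scaling by library size only, these turned to -0.30 and -0.0066, and without WT 2 the first was 0.28 and passed (adjusted p = 0.0111). *Ltbr* lies at chr6:125306571-125313885 on the minus strand.

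*Ngfr*, the low-affinity neurotrophin receptor, is carried by nerve-associated cells and, in lymphoid organs, by some stromal cells. It was at 0.684, 0.0843 and 1.15 CPM in WT 1, 2 and 3, at 0.115, 0.130, 0.114, 0.0412 and 0.211 CPM in *Tlr7* KO 1 to 5, and at 0.0681, 0.0374 and 0.0419 CPM in *Ifnar1* KO 1 to 3. WT 2 lay within the *Tlr7* KO range and only just above the *Ifnar1* KO glands. Before scaling, WT 2 and *Ifnar1* KO 1 had 2 counts each. The log2 fold change was -2.42 ± 0.699 (adjusted p = 0.0266) and -3.63 ± 0.987 (adjusted p = 0.0427), on 64, 14 and 4 counts in all for WT, *Tlr7* KO and *Ifnar1* KO. Without WT 3 the *Tlr7* KO difference was -1.69 (adjusted p = 0.15), and it also missed the threshold without WT 1 or *Tlr7* KO 1, 3 or 4 (adjusted p = 0.0587 to 0.0705). The *Ifnar1* KO difference was -2.89 without WT 3 (adjusted p = 0.139) and passed only without WT 2 among the fits that left out a mouse. It also missed the threshold in the second deposited table (-3.59, adjusted p = 0.058). Schwann cell markers summed to 19.0 to 30.04 CPM in WT, 14 to 16.6 in *Tlr7* KO and 12.2 to 18.1 in *Ifnar1* KO glands, and their part in the *Ngfr* result was not tested. *Ngfr* lies at chr11:95568818-95587735 on the minus strand.

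**Figure D1:**
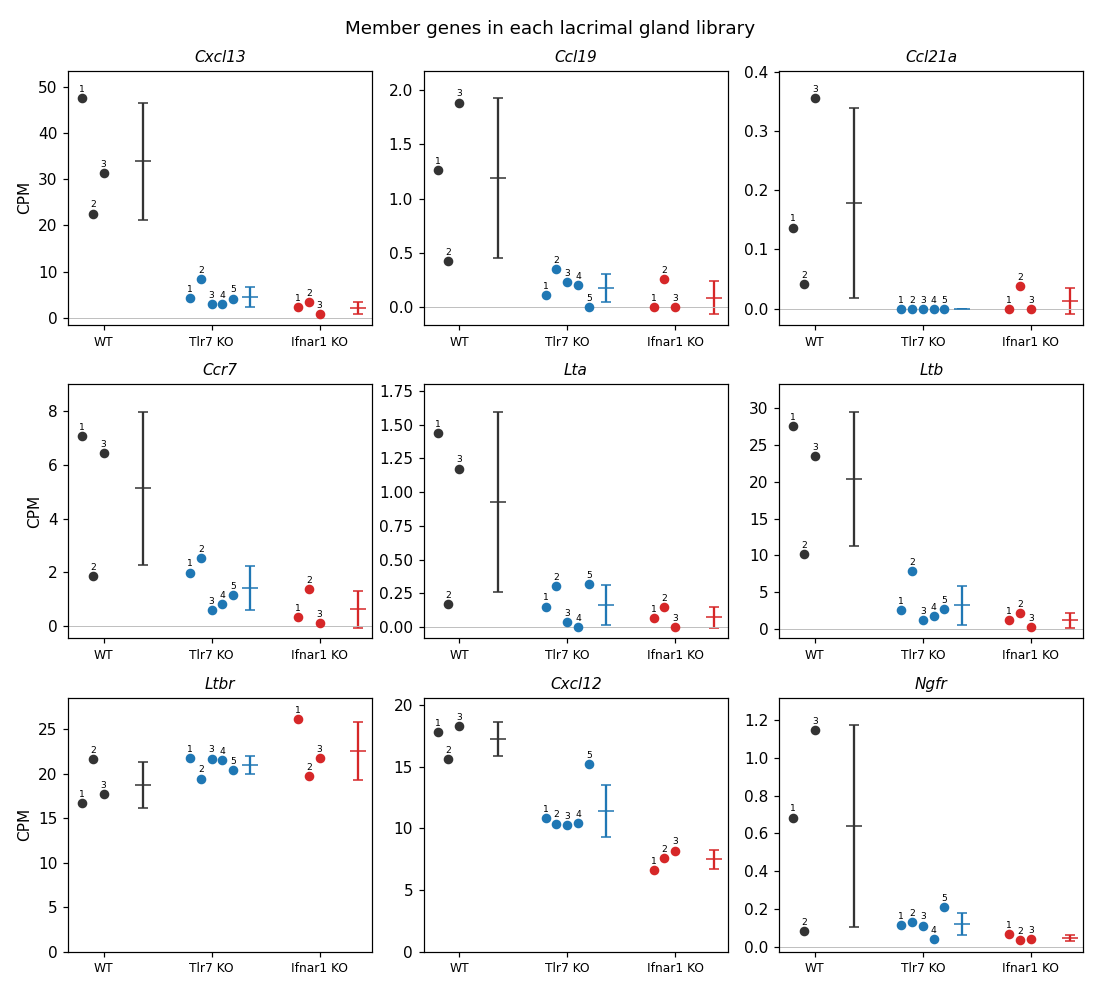
Level of each of the 9 genes in CPM (vertical axis, linear, a separate scale for each gene) in each gland, with WT in black, *Tlr7* KO in blue and *Ifnar1* KO in red. Points are mice with their number, and the bars beside them are the mean and SD. WT 2 sits below the other WT glands for 8 of the 9 genes, and *Ltbr* is the gene whose groups lie at one level.

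Of the 8 tested members, 7 were DE and lower in *Tlr7* KO than in WT, where 17.4% of the 13937 genes tested were lower and 15.3% were higher. In *Ifnar1* KO the same count of 7 was lower, where 12.4% of genes were lower and 6.76% higher. The 8 had a median log2 fold change of -2.49 for *Tlr7* KO and -3.62 for *Ifnar1* KO, beside -0.04 and -0.02 for all genes tested. A gene entered the test by its WT counts alone, and *Lta*, *Ngfr* and *Ccl19* entered on few knockout counts, so these counts and medians describe the list and support nothing further. In the main table every *Tlr7* KO mouse was below every WT mouse for 4 of the 8 (*Cxcl13*, *Ccl19*, *Ltb* and *Cxcl12*), against 14.2% of all genes. In *Ifnar1* KO this held for 7 of the 8, all but *Ltbr*, against 21.1% of all genes. For *Lta*, WT 2 and *Ifnar1* KO 2 each had 4 counts, and for *Ngfr*, WT 2 and *Ifnar1* KO 1 each had 2. Those separations therefore came from scaling alone. In the second deposited table *Ngfr* had 1 count in WT 2 and 2 in *Ifnar1* KO 1. The comparisons of WT with each knockout use the same WT mice, so they are not independent of each other.

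The counts depended on single mice. WT 2 was the lowest WT gland for 8 of the 9 genes. It was also the lowest WT gland for the summed B cell and T cell markers described below, where the highest WT gland was 3.55-fold and 3.26-fold above it. In *Tlr7* KO, 4 members were called without WT 1 and 3 (*Cxcl13*, *Ltb* and *Cxcl12*) without WT 3. Leaving out the libraries highest in salivary markers is the same fit here as leaving out WT 3, and is no further check. Over all genes 2722 and 2602 were called without WT 1 and without WT 3, against 4566 with every mouse. In *Ifnar1* KO, no member was called without WT 1, without *Ifnar1* KO 1 or without *Ifnar1* KO 3, and 2 were called without WT 3. Over all genes the calls in those fits were 13, 0, 0 and 121, against 2677 with every mouse. With each of the 6 mice left out in turn, *Cxcl13* in *Ifnar1* KO had a log2 fold change of -4.45 to -3.61, and its adjusted p ranged from 0.00308 without WT 2 to 0.0799 without *Ifnar1* KO 3. Without WT 3 and *Ifnar1* KO 2 together, 4 members and 478 genes in all were called in *Ifnar1* KO.

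Between the knockouts, 0 of the 8 tested members were DE, where 1.79% of genes were, with edgeR's quasi-likelihood test. At an unadjusted p under 0.05 from the same test there were 2 of 8 (over all genes, 2270 of 13937), *Cxcl13* (log2 difference 1.04, 95% interval 0.04 to 2.05, higher in *Tlr7* KO) and *Cxcl12*, and DESeq2 called 1 member, *Cxcl12*. Without *Ifnar1* KO 2 the count was also 0. With the replicate block, *Cxcl13* (adjusted p = 0.012) and *Ltb* (adjusted p = 0.0109) passed. Mean CPM was highest in WT and lowest in *Ifnar1* KO for 7 of the 9 genes. The groups failed to overlap for 1 tested member, *Cxcl12*, against 10.7% of genes. For *Ltb*, *Tlr7* KO was higher by 1.42 on the log2 scale (95% interval -0.15 to 2.98) and for *Ccr7* by 1.19 (-0.31 to 2.69), and both intervals include 0. Without *Ifnar1* KO 2 these were 2.18 and 2.55 (adjusted p = 0.154 and 0.0575), and without *Tlr7* KO 2 the *Ltb* difference was 0.77. The *Ccr7* difference was 0.73 without *Ifnar1* KO 3.

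**Figure D2:**
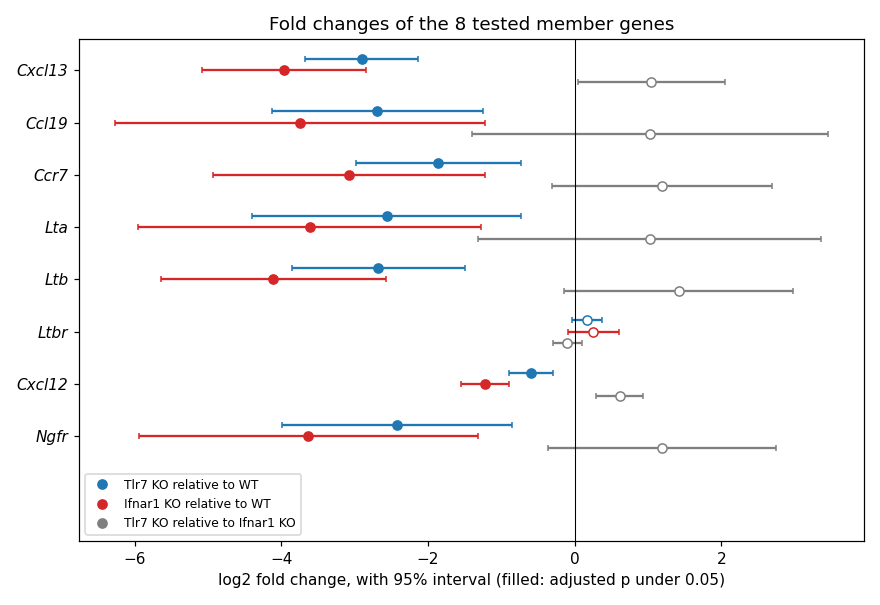
Log2 fold change of the 8 tested genes (horizontal axis) with its 95% interval from edgeR's quasi-likelihood fit, for *Tlr7* KO relative to WT (blue), *Ifnar1* KO relative to WT (red) and *Tlr7* KO relative to *Ifnar1* KO (grey). Filled points have an adjusted p under 0.05. The blue and red points lie left of 0 for all genes but *Ltbr*, and no grey point is filled.

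B cell and T cell markers moved with these genes. The 8 B cell markers summed to 77.7 to 276 CPM in WT, 6.76 to 49.0 in *Tlr7* KO and 2.51 to 19.95 in *Ifnar1* KO glands, and the 8 T cell markers to 26.6 to 86.7, 6.30 to 31.6 and 1.76 to 15.7 CPM. Of these lists 8 of 8 B cell and 7 of 8 T cell genes were lower in each knockout. Over all genes tested, 17.4% were lower in *Tlr7* KO and 12.4% in *Ifnar1* KO. Mature dendritic cell markers summed to 29.2 to 43.8, 14.5 to 22.9 and 11.6 to 19.3 CPM. Of 6 tested in that list, 4 were lower in *Tlr7* KO and 2 in *Ifnar1* KO. Markers too entered the test by their WT counts alone. Fibroblast markers overlapped between groups, at 80.6 to 176, 104 to 176 and 92.7 to 128 CPM. Within that list *Dcn* (-0.66 and -0.80) and *Pdgfra* (-0.56 and -0.74) were lower and *Fap* (1.14 and 1.05) was higher in *Tlr7* KO and *Ifnar1* KO. No marker of these lists was at 0 in every mouse, and the lists were not used to test a cause.

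*Ltb* was set against the summed counts of B cell and T cell markers. The log2 ratio was -3.72, -3.36 and -3.69 in WT 1 to 3 and -3.65, -3.35, -3.41, -3.75 and -3.38 in *Tlr7* KO 1 to 5, a difference of 0.08 (exact permutation p = 0.643, two-sided). In *Ifnar1* KO it was -3.70, -4.002 and -4.22, a difference of -0.39 (exact permutation p = 0.2, where the smallest possible is 0.1). Between the knockouts the *Ltb* ratio was 0.47 higher in *Tlr7* KO (exact permutation p = 0.0714), and each pair of groups overlapped. *Cxcl13* differed by -0.02 in *Tlr7* KO and -0.01 in *Ifnar1* KO on this scale (exact permutation p = 1 for each). Against fibroblast markers *Cxcl13* was instead lower by 2.98 log2 units in *Tlr7* KO (exact permutation p = 0.0357, the smallest possible with 3 mice against 5) and by 3.87 in *Ifnar1* KO (exact p = 0.1). With these numbers of mice no adjusted p under 0.05 was possible over the 27 ratio tests, and the lowest exact permutation value after adjustment was 0.241.

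The choice of marker changed what these ratios showed. Against T cell markers alone, *Ltb* was lower in *Tlr7* KO by 0.79 log2 units and *Cxcl13* lower by 0.88, with no overlap between groups (exact permutation p = 0.0357 for each). Against B cell markers alone *Ltb* was 0.51 higher (exact p = 0.0357) and *Cxcl13* 0.41 higher (exact p = 0.429). In *Ifnar1* KO, *Ltb* was 1.17 log2 units lower than in WT against T cell markers alone, with no overlap (exact p = 0.1). Between the knockouts it was 0.54 higher in *Tlr7* KO against B cell markers alone, also with no overlap (exact p = 0.0357). *Ccr7* was higher by 1.12 in *Tlr7* KO against both lists together (exact p = 0.0357, adjusted p = 0.241), by 1.55 against B cell markers and by 0.25 against T cell markers (exact p = 0.393). B cell markers had a lower median fold change than T cell markers, -3.29 against -1.92 on the log2 scale in *Tlr7* KO. The part of this difference in the ratios was not tested.

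**Figure D3:**
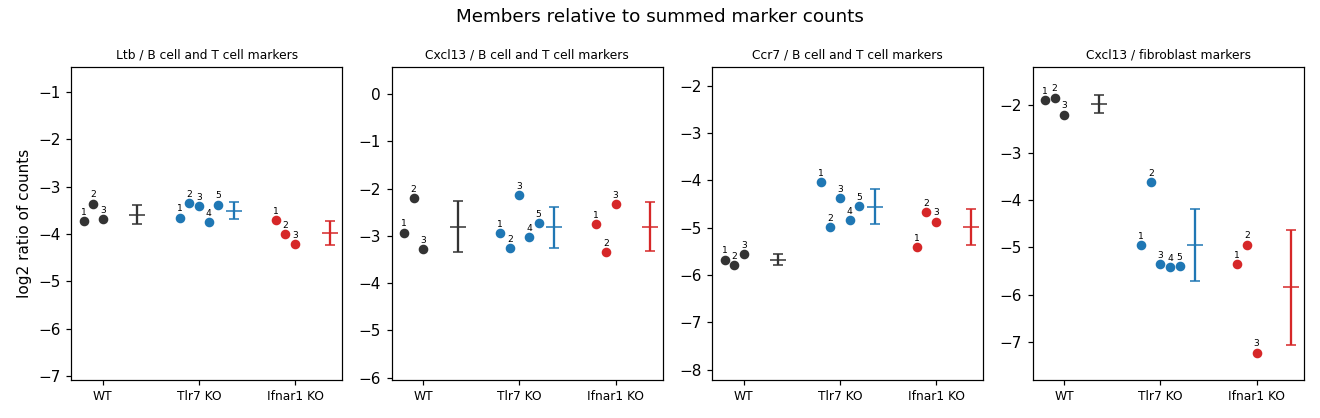
Log2 ratio of a gene's count to the summed counts of a marker list (vertical axis, the same span in each panel) in each gland, by group, with mean and SD. From left, *Ltb*, *Cxcl13* and *Ccr7* are set against B cell and T cell markers, and *Cxcl13* against fibroblast markers. The *Ltb* and first *Cxcl13* panels overlap between groups, while *Cxcl13* against fibroblast markers is lower in all knockout glands than in WT.

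Genes whose pattern over the 11 mice was nearest to a member's were found by the root mean square difference of centred log2 CPM, over the 11503 genes averaging 1 CPM or more. The nearest to *Cxcl13* were *Hvcn1*, *Snn* and *Serpina1b* (0.215 to 0.327). For *Ltb* they were *H2-DMb2*, *Cd37* and *Ptprcap* (0.248 to 0.299), and for *Ccr7* they were *Il2rg*, *Cd3g* and *Zap70* (0.261 to 0.286). *Cxcl12* was nearest to *Cd14*, *S100a1* and *Apod* (0.143 to 0.174). *Ltbr* was nearest to *Gtf3c5*, *Tom1l1* and *Ankrd27* (0.0493 to 0.0537), beside its own spread of 0.163 about its mean. *Lta*, *Ccl19* and *Ngfr* had distances of 0.329 to 0.553 from their nearest genes at low counts, and no neighbours are listed for *Ccl21a*.

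The other genes of the pathway were taken from 4 lists of 59 genes, of which 47 were tested. Across the 47, 24 were lower and 2 higher in *Tlr7* KO, 20 lower and 0 higher in *Ifnar1* KO, and 1 differed between the knockouts. For comparison, the shares of all genes tested were 17.4% lower and 15.3% higher, 12.4% lower and 6.76% higher, and 1.79%, which also apply to each list. The 47 genes' median log2 fold change was -0.74 and -1.19 in these comparisons. Pathway genes too entered the test by their WT counts alone. Some, such as *Tnfsf11* and *Cd40lg*, had knockout means close to or below a floor of 3 counts. Counts and medians relative to WT, here and for each list below, therefore describe the lists and support nothing further. Without WT 1 or WT 3 the pathway genes called in *Tlr7* KO numbered 13 or 12. In *Ifnar1* KO none was called when WT 1, WT 3 or either of *Ifnar1* KO 1 and 3 was left out, against 31 without WT 2, where calls over all genes went from 2677 to 4666. Without WT 3 and *Ifnar1* KO 2 together the counts were 12, 5 and, between the knockouts, 8, beside 2602, 478 and 877 over all genes.

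Among lymphoid chemokine receptors and related chemokines, 3 of 11 were lower and 1 higher in *Tlr7* KO, and 4 were lower in *Ifnar1* KO. *Cxcr5*, the CXCL13 receptor of B cells and follicular helper T cells, fell from 12.3 ± 5.75 CPM in WT to 1.001 ± 1.06 in *Tlr7* KO (log2 fold change -3.64, adjusted p = 0.0039) and to 0.535 ± 0.545 in *Ifnar1* KO (-4.52, adjusted p = 0.0216). *Cxcr4*, the CXCL12 receptor, fell from 16.7 ± 3.12 CPM to 1.82 ± 0.363 (-3.21, adjusted p = 3.38e-05) and 1.59 ± 1.36 (-3.41, adjusted p = 0.0216). *Cxcl16* fell from 20.4 ± 7.06 to 10.7 ± 2.51 (-0.94) and 4.95 ± 2.80 CPM (-2.07), and its receptor gene *Cxcr6* fell in *Ifnar1* KO (-2.23, adjusted p = 0.0493) and was at -0.74 in *Tlr7* KO (adjusted p = 0.246). *Ccl28*, a chemokine of mucosal and glandular epithelium, moved the other way, from 54.7 ± 7.58 CPM in WT to 149.9 ± 9.30 in *Tlr7* KO (1.45 ± 0.109, adjusted p = 0.000225). It was at 71.2 ± 24.2 CPM in *Ifnar1* KO and was the pathway gene that differed between the knockouts (1.08 ± 0.176 higher in *Tlr7* KO, adjusted p = 0.0189). That call ended with library size only and without *Tlr7* KO 3, *Tlr7* KO 5, *Ifnar1* KO 1 or *Ifnar1* KO 3.

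In the lymphotoxin and non-canonical NF-kB list, 10 of 17 were lower and 1 higher in *Tlr7* KO and 9 were lower in *Ifnar1* KO. *Tnfsf14*, a further ligand of the lymphotoxin receptor, fell from 0.665 ± 0.182 CPM to 0.167 ± 0.0992 in *Tlr7* KO (log2 fold change -1.96) and 0.162 ± 0.0113 in *Ifnar1* KO (-2.04) (adjusted p = 0.0152 and 0.0265). Its knockout means were close to a floor of 3 counts, 0.102 to 0.158 CPM in those libraries. *Tnfrsf14*, the other receptor of the *Tnfsf14* product, fell likewise (-1.85 and -2.54), as did *Tnfrsf1b*, a receptor for TNF and soluble lymphotoxin (-1.43 and -2.19). *Nfkb2*, a subunit of the non-canonical pathway, fell from 30.8 ± 9.53 CPM in both (-1.05, adjusted p = 0.0053, and -1.21, adjusted p = 0.0251). *Tnf*, the neighbour of *Lta* and *Ltb*, was at -0.76 in *Tlr7* KO (adjusted p = 0.121) and fell in *Ifnar1* KO from 1.33 ± 0.397 to 0.303 ± 0.104 CPM (adjusted p = 0.0235). The medians of the list were -0.46 (*Tlr7* KO) and -0.70 (*Ifnar1* KO).

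Of the lymphoid tissue inducer and organiser genes, 9 of 14 were lower in *Tlr7* KO and 7 in *Ifnar1* KO, with none higher. *Cr2*, the complement receptor of B cells and follicular dendritic cells, fell from 8.09 ± 4.86 to 0.842 ± 0.907 CPM (-3.27, adjusted p = 0.00727) and 0.435 ± 0.320 CPM (-4.21, adjusted p = 0.0225). *Vcam1*, an adhesion molecule of activated stroma and endothelium, fell from 19.2 ± 5.74 to 3.93 ± 2.09 (-2.30, adjusted p = 0.00218) and 2.07 ± 1.62 CPM (-3.23, adjusted p = 0.0216). *Tnfsf11*, the ligand RANKL of inducer cells, fell from 0.571 ± 0.226 CPM to 0.109 ± 0.112 (-2.36) and 0.0600 ± 0.0565 CPM (-3.16). A floor of 3 counts was 0.102 to 0.158 CPM in the knockout libraries, and these knockout means lay within or below that range. *Cd40lg*, the T cell ligand of CD40, fell from 0.510 ± 0.314 CPM in WT to 0.0689 ± 0.0649 in *Tlr7* KO (-2.85, adjusted p = 0.016). It was at 0.0498 ± 0.0863 CPM in *Ifnar1* KO (-3.29, adjusted p = 0.0704), and both knockout means were below that floor. *Cd40* fell in both (-1.69, adjusted p = 0.0177, and -2.91, adjusted p = 0.0343). *Cr2* is also among 8 follicular dendritic cell markers, of which 6 were tested. *Cr2*, *Fcer2a* (-3.19 and -4.67) and *Enpp2* (-1.97 and -2.20) were lower in both knockouts, *Mfge8* was higher in *Tlr7* KO (0.34, adjusted p = 0.0459), and the list medians were -1.28 and -1.43. Their summed level, most of it *Mfge8* and *Clu*, overlapped between groups, at 208 to 269 CPM in WT, 197 to 226 in *Tlr7* KO and 198 to 229 in *Ifnar1* KO glands, and the part of these cells in the results was not tested.

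In the neurotrophin list, 2 of 5 tested genes were lower in *Tlr7* KO and none passed in *Ifnar1* KO. These were *Ntrk3*, the neurotrophin 3 receptor (-1.12 ± 0.296, adjusted p = 0.0187), and *Bex3* (-0.34 ± 0.113, adjusted p = 0.044). The list median was -0.57 and -0.70.

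**Figure D4:**
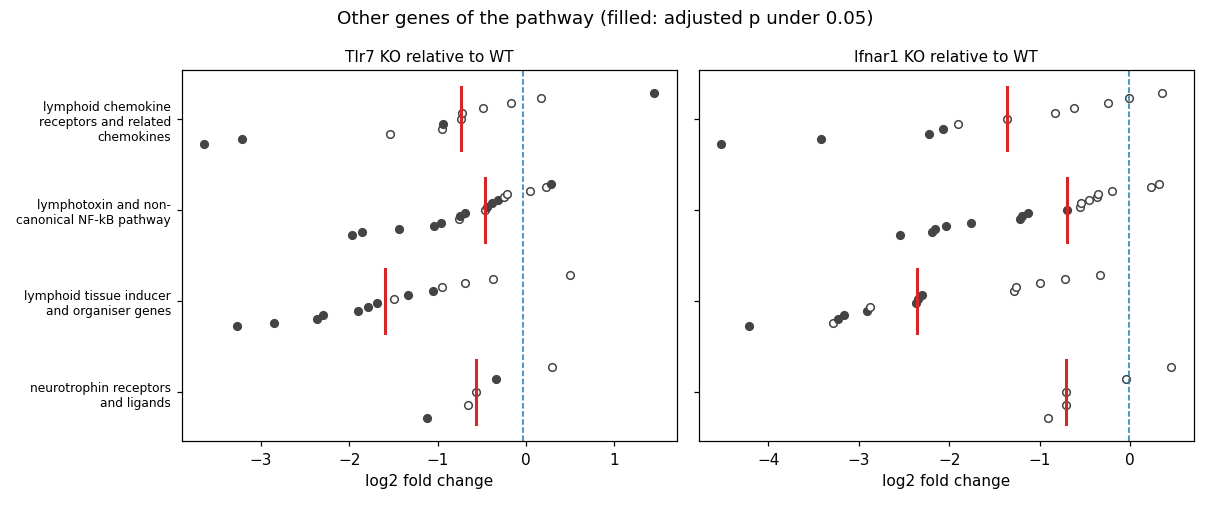
Log2 fold change (horizontal axis) of each tested pathway gene by list, in *Tlr7* KO (left) and *Ifnar1* KO (right) relative to WT. Points are genes, filled where the adjusted p was under 0.05, red lines are list medians and the dashed line is the median of all genes tested. The inducer and organiser genes have the lowest list median, and *Ccl28* is the filled point at 1.45 on the left.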

How the data were processed

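Whole lacrimal gland RNA from 11 mice was measured. The study states that salmon quantified the reads and tximport gave gene-level values, and the authors deposited these as estimated counts over 19058 genes, which were rounded here. The file is called normalized. Its column totals are unequal, which does not settle whether its values had been scaled. They were treated as unnormalized counts, and this choice was not tested. A further file deposited by the authors gives counts in whole numbers (39017 genes; counting tool not given in the sources used here), and the submitters' processing notes name HISAT2 2.1.0 and mm10. It served as an alternative. In it, 1 column for an *Ifnar1* KO mouse without a sample was not used.

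The genes and gene lists were chosen with earlier results of these data known. Marker and pathway lists were written from general knowledge. Libraries were scaled by TMM, and genes with at least 30 summed counts over the WT mice were tested with edgeR 4.0.16's quasi-likelihood test (R 4.3.3), in separate fits of each pair of groups, adjusted by Benjamini-Hochberg over 13937 genes, with DE at an adjusted p under 0.05. CPM use TMM factors over 11 mice. Nothing says that p values cover more than the spread between these mice. Ratios to markers added 0.5 to each count and were compared with exact permutation tests (scipy 1.17.1). Intervals on counts are 95% and cover counting error only, with a floor of 3 counts. Alternatives were RLE factors, library size only, DESeq2 1.42.0, filterByExpr, no filter, all mice in a single fit, the replicate block, the second table, an adjusted p under 0.01 and each mouse left out. Leaving out WT 3 and *Ifnar1* KO 2 was added after the data were seen. In separate fits of each pair, it is the same fit as without WT 3 for WT and *Tlr7* KO. Between the knockouts it is the same fit as without *Ifnar1* KO 2. The pathway genes named are up to 4 called genes per list and comparison with the largest change, and up to 3 nearest genes per member. Scripts were tested on simulated data. Annotation is GENCODE M21 on GRCm38, and promoter sequences are from RefSeq on GRCm38.p6, which held 8 of the 9 genes, all but *Ccr7*.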

Additional observations from a re-analysis of the deposited data

Results flagged for a closer look

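Several values in the *Tlr7* KO group stood far from the other 4 mice, by the gap to the nearest mouse relative to the whole range. *Tlr7* KO 2 was high for *Cxcl13* (8.39 CPM), *Ltb* (7.87 CPM), *Cxcr5* (2.83 CPM), *Cr2* (2.43 CPM), *Tnfrsf14* (1.17 CPM) and *Vcam1* (7.65 CPM), for the summed T cell markers (31.6 CPM), and for *Cxcl13* relative to fibroblast markers (-3.63 on the log2 scale). *Tlr7* KO 5 was high for *Cxcl12* (15.2 CPM). In all 41 groups of 5 were checked this way, and chance alone marks about 1 in 20 groups. Several of these values come from the same mouse and are not independent.

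*Ccl28* differed between the knockouts by a test of the difference itself, at 1.08 on the log2 scale, higher in *Tlr7* KO. The call ended with library size only and when *Tlr7* KO 3, *Tlr7* KO 5, *Ifnar1* KO 1 or *Ifnar1* KO 3 was left out.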

How the results depend on the processing

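In *Tlr7* KO, 7 members and 26 pathway genes were called. The count of members was 4 with filterByExpr (which tested fewer genes), 3 at an adjusted p under 0.01 and 3 without WT 3 and *Ifnar1* KO 2, and with each mouse left out it ran from 3 to 8. Pathway calls were 10 at 0.01, 12 without those libraries and 12 to 34 with each mouse left out. In *Ifnar1* KO, 7 members and 20 pathway genes were called. Members called were 4 with filterByExpr, 0 at 0.01 and 4 without those libraries, and 0 to 7 with each mouse left out, and pathway calls were 31 with all 11 mice in a single fit (5124 over all genes, from 2677), 0 at 0.01, 5 without those libraries and 0 to 31 with each mouse left out. Between the knockouts, 1 member was called with DESeq2, and pathway calls were 0 with library size only, 5 with DESeq2, 0 at 0.01, 8 without those libraries and 0 to 8 with each mouse left out. Calls over all genes moved too, to 170, 577, 30, 877 and 85 to 877 in those fits, from 250. At 0.01 they were 1970 in *Tlr7* KO and 1 in *Ifnar1* KO. With the second deposited file, 6 and 5 members were called in *Tlr7* KO and *Ifnar1* KO, beside 4010 and 2507 over all genes. *Ccl19* had too few WT counts in that file and was not tested. *Ltbr* turned to -0.30 and -0.0066 with library size only, which moved the median of all genes to -0.54 and -0.31, and between the knockouts it ran from -0.19 to 0.024 with each mouse left out, turning without *Ifnar1* KO 1. That scaling cut the share of calls that were higher from 46.8% to 2.77% in *Tlr7* KO, from 35.2% to 3.81% in *Ifnar1* KO and from 51.6% to 30.6% between the knockouts. It also moved log2 fold changes in *Tlr7* KO, from -2.56 to -3.23 for *Lta* and from -2.42 to -3.07 for *Ngfr*. *Ccr7* went from -1.86 to -2.48 and *Ltb* from -2.68 to -3.27. Library size only leaves out the TMM factors. Over the 11 mice these were 1.43, 0.873 and 1.48 in WT 1, 2 and 3, and 0.688 to 0.977 in *Tlr7* KO. In *Ifnar1* KO they were 0.935 to 1.095. Why the factors differed between libraries was not tested. The ratios to markers could not pass in any alternative, given the numbers of mice.

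Deviations of same-numbered mice from their group means had correlations of -0.44 to 0.34. They were negative in most pairs with WT and positive between the knockouts (0.0641, 0.34 and 0.26 for replicates 1, 2 and 3). Nothing in the labels ties the numbers, so the mice were not treated as paired. With the replicate block, members called were 0 in *Tlr7* KO, 0 in *Ifnar1* KO and 2 between the knockouts, and pathway calls were 1, 0 and 7, beside 14, 0 and 502 over all genes.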
